A study of Mus musculus with 16 samples.

Results

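The diet by feeding state interaction asks whether a meal after a fast changed the liver transcriptome to the same extent in mice on a diet low in isoleucine as in mice on a control diet. All 16 liver libraries of the study enter it, 4 in each of 4 groups, so its members are 16 of 16 samples. The contrast is the refeeding effect (refed minus fasted) on the low isoleucine diet minus the refeeding effect on the control diet, in log2 units. It equals the diet effect in refed mice minus the diet effect in fasted mice. A value above 0 means that refeeding moved a transcript further up, or less far down, on the low isoleucine diet.

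The mice were males of 13 weeks that were fed either a control amino acid diet or a Low Isoleucine diet for 3 weeks, from 10 weeks of age. Livers were frozen after an overnight fast of 16 h or after refeeding. The groups were control fasted, control refed, low isoleucine fasted and low isoleucine refed. No allele, transgene or further agent is named for any group, and the sources used here give neither the strain nor the hours of refeeding nor the clock time of harvest. Each group carried 1 number of its own in the labels (1, 2, 7 and 9), and the meaning of the number cannot be told apart from the group. The labels do not say how far the animals of 1 group shared a cage or a day, so p-values measure the spread between these livers.

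A fasted liver oxidises fatty acids, makes ketone bodies and glucose, and breaks down amino acids. Refeeding raises insulin, glucose and amino acids, which switch on lipid synthesis and protein folding factors and switch off the fasting programme. Isoleucine is an essential branched-chain amino acid, and a cell short of an amino acid activates the kinase GCN2 and the transcription factor ATF4. Meals also set the phase of the circadian clock in the liver.

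Total counts per library ran from 24368656 to 34002955. Of 51912 genes in the table, 14920 had enough counts to be tested. None of the 14 hepatocyte markers was at 0 in all libraries, and they summed to between 94400 and 149000 CPM (counts scaled to library size with TMM factors) per library. Control refed library 4 stood apart from the others of its group: it lay at 13.7 on the first principal component, where the other 7 refed libraries lay between 24 and 42.8, and sample quality weighting gave it the lowest weight of the 16, 0.26. Its stellate markers summed to 678 CPM against at most 518 in any other library, and its lymphocyte markers to 33.7 CPM against at most 17.1. Fasn, the fatty acid synthase, was at 62.2 CPM in that liver and at 348 to 545 CPM in the other control refed livers. The main list and gene values that it moved are also given without this library. In bulk RNA, fewer cells of a type and less RNA per cell cannot be told apart.

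No gene passed an adjusted p of 0.05 for the interaction in edgeR's quasi-likelihood test over 14920 genes (0% called). At an unadjusted p under 0.05 there were 928 genes, 6.22% of those tested, of which 410 were above 0 (2.75%) and 518 below (3.47%). Limma-voom called 0 genes with and without sample quality weights. DESeq2's Wald test called 35 of 16875 genes (0.207%), 16 above 0 (0.0948%) and 19 below (0.113%). The 95% interval of the interaction lay within 1 log2 unit of 0 for 9252 genes, 62% of those tested. An interaction above 0 was estimated for 47.7% of all tested genes. Without control refed library 4, 524 of 15043 tested genes were above 0 at an unadjusted p under 0.05, and 638 were below. These shares and counts are the background for the gene lists below.

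Refeeding itself had a broad effect on either diet. On the control diet 2552 genes passed (17.1%), 1329 higher (8.91%) and 1223 lower (8.2%). With the low isoleucine diet 3194 genes passed (21.4%), 1433 higher (9.6%) and 1761 lower (11.8%). Both diets shared 1688 genes in the same direction, 66.1% of the control list and 52.8% of the low isoleucine list, and 1 gene passed in opposite directions. That gene, Fmr1nb, was scarce, with a mean of 0.61 CPM, and was singled out after its values were seen. Of the genes not shared, 863 passed on the control diet alone and 1505 on the low isoleucine diet alone, which does not show that their effects differed, since no interaction passed.

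The 4915 genes that passed for the mean refeeding effect over both diets (32.9%) were chosen by a contrast at right angles to the interaction. Among these, the 2 refeeding effects had a Spearman correlation of 0.893 across genes, which are not independent replicates, and choosing genes on the mean of both effects favours a high value. The interaction had the sign of the refeeding effect in 58.4% of them, with a signed median of 0.057 log2 units. Of the 2464 genes lowered by refeeding (16.5% of those tested), 66.4% had a larger estimated fall on the low isoleucine diet, with a signed median of 0.11, against 50.4% of the 2451 raised genes (16.4% of those tested), with a signed median of 0.0031. The signed median over all of them was 0.0174 without control refed library 4 and 0.1064 without low isoleucine refed library 3, so its size rested on single libraries. The median absolute refeeding effect was 0.51 with the control diet, against 0.56 with the low isoleucine diet.

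**Figure D1:**
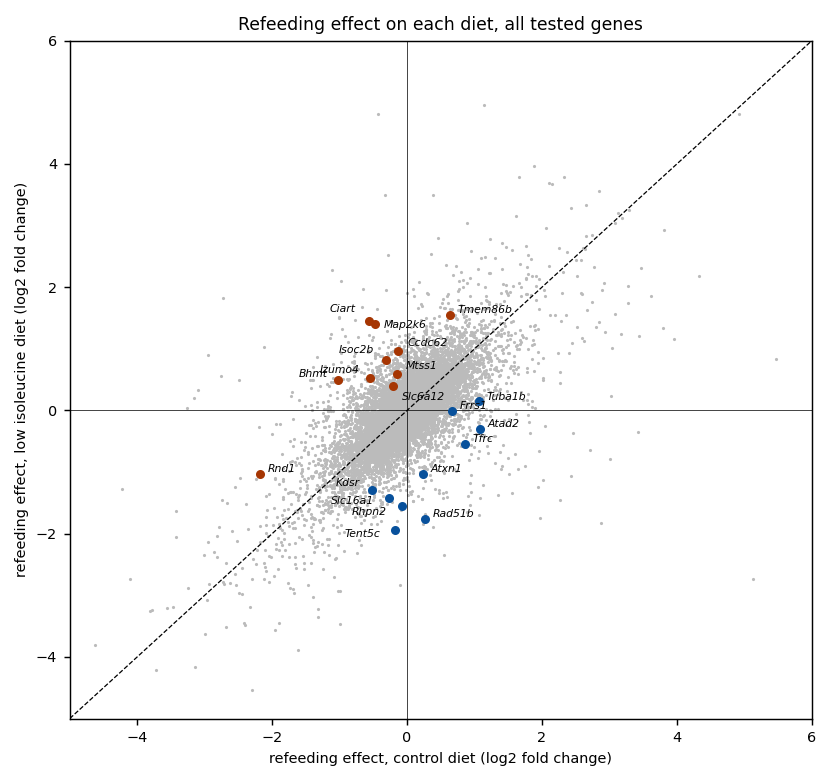
Refeeding effect on the control diet (x axis) against the low isoleucine diet (y axis), in log2 fold change, for 14920 tested genes (grey; 7 lie outside the axes). The dashed line marks equal effects, and the 20 genes with the smallest unadjusted interaction p are orange where the interaction was above 0 and blue where it was below 0. None of these passed adjustment in edgeR, where the lowest adjusted p was 0.285.

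Of the genes ranked by interaction p, Ciart had the smallest p among genes averaging 1 CPM or more and bearing no provisional name. Ciart (ENSMUSG00000038550) encodes a repressor of the circadian clock. Its level was 22.6, 25.4, 14.4 and 22.5 CPM in control fasted livers, 16.4, 15.7, 11.9 and 13.4 in control refed livers, 6.57, 10.3, 3.58 and 9.1 in low isoleucine fasted livers, and 18.1, 17.5, 18.9 and 26.3 in low isoleucine refed livers. The low isoleucine fasted livers were the low group, and all 4 lay below all 12 other livers. Refeeding gave a log2 fold change of 1.45 ± 0.26 (SE) on the low isoleucine diet, with an edgeR adjusted p of 0.000911, and -0.56 ± 0.25 on the control diet, with an adjusted p of 0.147. The interaction was 2.01 ± 0.36, with a 95% interval of 1.25 to 2.78, an edgeR unadjusted p of 3.82e-05 and an adjusted p of 0.285; DESeq2 gave an adjusted p of 0.000406. Leaving out each library in turn kept it between 1.78 and 2.22. Ciart was picked by its p in these same libraries, so the separation of groups, the DESeq2 result and this range are no independent support. The same holds for the other ranked genes described below. It also holds for list members taken up for a small interaction p within their list, such as Oasl1, Ehhadh and Ccnd1.

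The 250 bases before the start of Ciart hold the E-box CACGTG, the palindrome bound by CLOCK and BMAL1, at 3 places, shown in capitals (RefSeq, GRCm38.p6, chr3:95882229-95882478, minus strand, 5′ to 3′):
Ciart: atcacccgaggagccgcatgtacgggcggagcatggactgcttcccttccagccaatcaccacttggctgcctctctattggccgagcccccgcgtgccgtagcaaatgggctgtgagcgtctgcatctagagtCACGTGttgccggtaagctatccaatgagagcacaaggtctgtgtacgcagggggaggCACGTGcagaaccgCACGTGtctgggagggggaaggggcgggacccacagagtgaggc
The 3 copies begin 116, 58 and 44 bases before the start. Promoter windows of 300 bases (250 before to 50 after each start) were searched. The E-box was present in 7.15% of all 32851 RefSeq windows and in 6 of 22 windows of the circadian list. Those 6 belonged to 5 of the 17 listed genes that had a window, namely Bhlhe41, Ciart, Cry1, Per1 and Tef. The match describes the sequence and is no evidence of binding in these livers.

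Dbp and Per3 were also low in low isoleucine fasted livers, although neither passed for the interaction. Dbp, a clock output factor, was at 57.9, 71.8, 54 and 57 CPM in control fasted livers, 68.1, 61.2, 45.3 and 36.6 in control refed livers, 43.4, 25.1, 24.1 and 41.2 in low isoleucine fasted livers, and 56.8, 69.5, 52.8 and 82.8 in low isoleucine refed livers. The low isoleucine fasted livers lay below all control fasted livers and below all low isoleucine refed livers, but overlapped the control refed livers. The Dbp interaction was 1.16 ± 0.31 (edgeR unadjusted p = 0.00191). Per3, a period repressor, was at 29.9, 39, 23.9 and 24.5 CPM in control fasted livers, 38.5, 44.1, 36 and 24.1 in control refed livers, 16.5, 7.81, 9.03 and 15.9 in low isoleucine fasted livers, and 35.8, 22.5, 29.2 and 52.1 in low isoleucine refed livers. All 4 low isoleucine fasted livers lay below all 12 other livers. Refeeding raised Per3 by 1.503 ± 0.29 log2 units on the low isoleucine diet (adjusted p = 0.00186), against 0.28 ± 0.28 on the control diet (adjusted p = 0.573), and the interaction was 1.22 ± 0.40 (unadjusted p = 0.00817). Nr1d1, which encodes the repressor REV-ERBα, moved otherwise: refeeding lowered it by 1.69 log2 units on the control diet (adjusted p = 0.000287), while the value on the low isoleucine diet was -0.57 ± 0.24 (adjusted p = 0.111). Nr1d1 was at 89.1, 53.6, 63.1 and 86.9 CPM in control fasted livers, 29.8, 19.3, 16 and 25.7 in control refed livers, 55.3, 66.8, 75.3 and 87.7 in low isoleucine fasted livers, and 46.1, 73, 37 and 36 in low isoleucine refed livers. The fasted groups overlapped, and the low isoleucine refed livers all lay above the control refed livers.

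The gene lists and their members were chosen with earlier results of these data known, so list counts and medians are descriptions here and below. Among 20 circadian genes tested, 14 had an interaction above 0, against 47.7% of all tested genes, with a median of 0.43 against -0.02 over all genes. At an unadjusted p under 0.05 there were 6 above 0 and 0 below, against 2.75% and 3.47% of all tested genes. After adjustment 0 passed. Arntl, which encodes the activator BMAL1 and peaks opposite to Dbp in the day, and Cry1, a repressor, had values below 0, -0.81 and -0.57. Without control refed library 4 that of Arntl was -0.33 (unadjusted p = 0.386). The list median was 0.43 without control refed library 4 as well and ranged from 0.24 to 0.51 as each library was left out. The mean level of the list was 4.15 ± 0.14 log2 CPM (SD, n = 4) in low isoleucine fasted livers, all 4 of which lay below all other livers, and 4.44 to 4.59 in the other groups. The diet effect on the list had a median of -0.54 in fasted livers and -0.06 in refed livers.

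Interferon-stimulated genes, which encode antiviral proteins, were also lowest in low isoleucine fasted livers. The mean level of the list was 3.07 ± 0.29 log2 CPM there (SD, n = 4), against 3.96 ± 0.19 in control fasted livers, while refed livers had 4.17 ± 0.29 on the control diet and 3.83 ± 0.17 with low isoleucine. All 4 low isoleucine fasted livers lay below all others. Oasl1, an oligoadenylate synthetase-like protein, was at 15.2, 16.5, 10.3 and 17.5 CPM in control fasted livers, 34.5, 34.5, 25.1 and 19.6 in control refed livers, 7.16, 8.22, 6.05 and 7.03 in low isoleucine fasted livers, and 26.9, 28.2, 23.5 and 24.7 in low isoleucine refed livers. Every low isoleucine fasted liver lay below every other liver, and the refed groups overlapped. Refeeding raised Oasl1 by 0.93 ± 0.18 log2 units in control livers (SE, edgeR adjusted p = 0.00214) and by 1.86 ± 0.19 in low isoleucine livers (adjusted p = 4.91e-06). The interaction of 0.93 ± 0.26 had an edgeR unadjusted p of 0.00225 and an adjusted p of 0.509.

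Mx1, a dynamin-like antiviral GTPase, was at 4.9, 4.37, 4.42 and 4.52 CPM in control fasted livers, 3.5, 6.48, 4.43 and 4.66 in control refed livers, 2.79, 1.45, 1.48 and 1.25 in low isoleucine fasted livers, and 3.52, 4.06, 4.46 and 2.93 in low isoleucine refed livers. It was again lowest in the low isoleucine fasted livers, with no overlap with the control fasted livers. Refeeding raised Mx1 on the low isoleucine diet (1.11 ± 0.24, adjusted p = 0.00368), and the value on the control diet was 0.07 ± 0.23 (adjusted p = 0.891). Its interaction was 1.04 ± 0.34 (unadjusted p = 0.00647).

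Of the 30 listed genes 27 had an interaction above 0 (median 0.49), against 47.7% of all tested genes. An unadjusted p under 0.05 was seen for 10 of them, against 2.75% of all tested genes, and 0 passed. Leaving out control refed library 4 gave counts of 26 and 6, the latter against 524 of 15043 tested genes, and a median of 0.43. The members at that level included Usp18, which removes ISG15 from proteins, with 0.94 ± 0.27. Refeeding raised 18 of the 30 on the low isoleucine diet, where 9.6% of all tested genes rose, and lowered 1. It raised 4 of the 30 on the control diet, where 8.91% of all tested genes rose. Macrophage markers, another source of such transcripts, summed to between 232 and 337 CPM in low isoleucine fasted livers and between 374 and 485 CPM in control fasted livers. Those of the control refed livers summed to between 282 and 543 CPM, with library 4 highest, and those of the low isoleucine refed livers to between 223 and 397 CPM. The interaction median of the 13 markers was 0.06, or 0.26 without control refed library 4. Their part in the interferon values was not tested.

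The interferon-stimulated response element, searched on both strands as GAAA, any 2 bases and GAAA, occurred in 3.44% of all RefSeq promoter windows and in 12 of 23 windows of the interferon list. Ifit1, an interferon-induced protein that binds viral RNA, is shown as an example chosen after its values were seen, since its 250 bases before the start hold the element at 2 places, in capitals (RefSeq, GRCm38.p6, chr19:34640639-34640888, plus strand):
Ifit1: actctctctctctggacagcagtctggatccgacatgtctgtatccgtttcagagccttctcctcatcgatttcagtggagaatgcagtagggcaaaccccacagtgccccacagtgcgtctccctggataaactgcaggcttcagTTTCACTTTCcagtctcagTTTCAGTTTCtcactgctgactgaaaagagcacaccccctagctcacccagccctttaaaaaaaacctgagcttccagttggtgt
Ifit1 was at 34.5, 27.7, 28.3 and 35.5 CPM in control fasted livers, 38.8, 60.2, 42.4 and 21.7 in control refed livers, 17.7, 7.91, 6.65 and 8.55 in low isoleucine fasted livers, and 23.5, 31.8, 34 and 19.1 in low isoleucine refed livers. The low isoleucine fasted livers lay below all other livers, and its interaction was 1.04 ± 0.44 (edgeR unadjusted p = 0.0301).

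**Figure D2:**
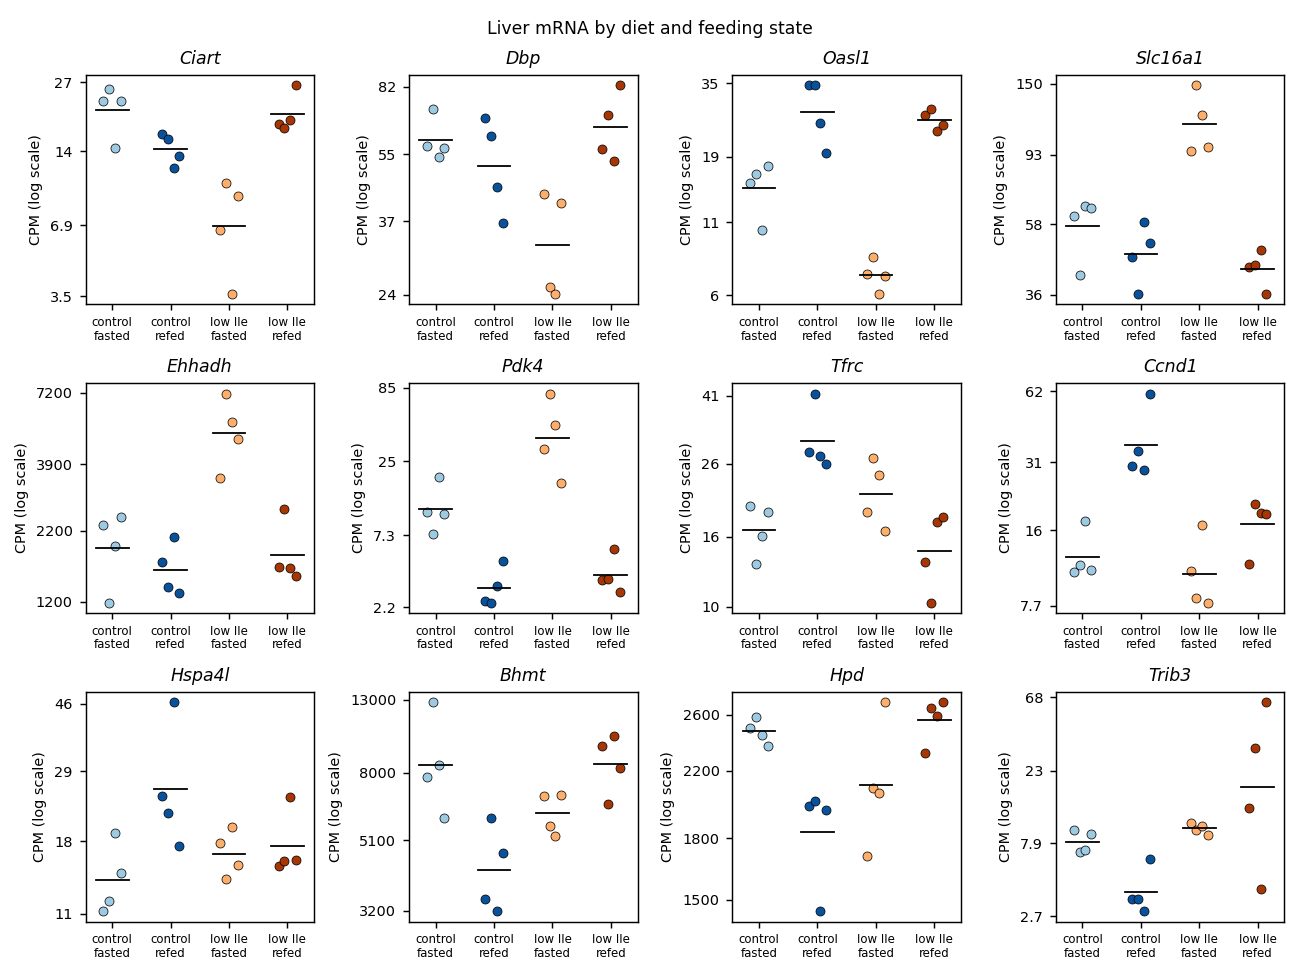
TMM-normalised CPM (log scale) of 12 genes in each of the 16 livers, by group. Points are libraries and lines are geometric means of 4. All 4 low isoleucine fasted livers lie below every other liver in Ciart and Oasl1 and above every other liver in Slc16a1 and Ehhadh. All 4 control refed livers lie above every other liver in Ccnd1. The genes were taken up with values of these same libraries known, so the separations are no independent support.

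Genes of fatty acid use had the mirror image. The mean level of the fatty acid oxidation list was 9.03 ± 0.15 log2 CPM (SD, n = 4) in low isoleucine fasted livers, all above the control fasted livers at 8.62 ± 0.14, and 7.97 ± 0.30 and 7.95 ± 0.13 in control and low isoleucine refed livers. Slc16a1, the monocarboxylate transporter MCT1 that carries lactate and ketone bodies, was at 61.3, 41.3, 65.9 and 64.8 CPM in control fasted livers, 46.6, 36.2, 59 and 51.2 in control refed livers, 95.2, 149, 122 and 98 in low isoleucine fasted livers, and 43.4, 44.2, 48.7 and 36.2 in low isoleucine refed livers. All 4 low isoleucine fasted livers lay above all 12 others, which overlapped. Refeeding lowered Slc16a1 by 1.43 log2 units on the low isoleucine diet (adjusted p = 4.35e-05) and gave -0.27 ± 0.18 on the control diet (adjusted p = 0.341). The interaction was -1.15 ± 0.25, with an interval of -1.69 to -0.62 and an unadjusted p of 0.000277; its DESeq2 adjusted p was 0.0252.

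Ehhadh, the bifunctional enzyme of peroxisomal β-oxidation, was at 2320, 1190, 1930 and 2470 CPM in control fasted livers, 1680, 1360, 2090 and 1290 in control refed livers, 3450, 7150, 5610 and 4820 in low isoleucine fasted livers, and 1620, 2650, 1600 and 1500 in low isoleucine refed livers. Low isoleucine fasted livers were again the high group, without overlap. Refeeding lowered Ehhadh on the low isoleucine diet by 1.51 log2 units (adjusted p = 0.000756), against -0.30 ± 0.26 on the control diet (adjusted p = 0.493), and the interaction was -1.21 ± 0.37 (unadjusted p = 0.00429). For Plin2, which coats lipid droplets, refeeding lowered the level on both diets, by 1.10 and 1.86 log2 units (adjusted p = 0.000552 and 3.93e-06), with an interaction of -0.76 ± 0.25 (unadjusted p = 0.00822).

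In the list of 30 genes for β-oxidation and ketone body synthesis, 28 had an interaction below 0 (median -0.44). Of these, 6 had an unadjusted p under 0.05, against 3.47% of all tested genes, and 0 passed. Without control refed library 4 there were 29 below 0 and 14 at an unadjusted p under 0.05, with a median of -0.52. In that fit 638 of all 15043 tested genes were below 0 at that level. Refeeding lowered 24 of the 30 on the low isoleucine diet and 13 on the control diet, against 11.8% and 8.2% of all tested genes. Besides Ehhadh and Plin2, the 6 were Cyp4a31, a microsomal fatty acid hydroxylase, Acot2, a thioesterase, Cd36, which takes up fatty acids, and Hadhb, of the mitochondrial trifunctional enzyme, with interactions of -0.90, -1.49, -1.01 and -0.37. Of the 2 members above 0, Cyp4a32 had 0.27, and it was below 0 in some fits that left out 1 library. Acot1 and Acot2, and the Cyp4a genes, have near-identical copies among which reads can be split, so their single values are uncertain. The diet effect on the list had a median of 0.33 in fasted and -0.10 in refed livers. The nuclear receptor half-site AGGTCA, repeated with any 1 base between as PPARα binds it, was searched on both strands and was found in 0 of 26 promoter windows of the list and in 0.0396% of all windows. That exact form was present in only 13 of 32851 windows, so a count of 0 in 26 cannot tell whether these genes have PPARα sites.

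Other genes of the fasting programme fell on both diets, with interaction intervals that reached 0 in the fit of all libraries. Cpt1a, which admits long-chain fatty acids to mitochondria, was at 1240, 1140, 1280 and 1200 CPM in control fasted livers, 526, 740, 470 and 502 in control refed livers, 1210, 1180, 1070 and 1180 in low isoleucine fasted livers, and 356, 485, 427 and 336 in low isoleucine refed livers. Every refed liver lay below every fasted liver on either diet, and the interaction was -0.41 ± 0.20, with an interval of -0.84 to 0.02, or -0.26 without control refed library 2. For Pck1, the rate-limiting enzyme of gluconeogenesis, refeeding lowered the level by 1.99 and 1.86, with an interaction of 0.13 ± 0.49 and an interval of -0.91 to 1.17. Angptl4, a fasting-induced inhibitor of lipoprotein lipase, fell by 3.00 and 3.62 log2 units, with an interaction of -0.62 ± 0.37 and an interval of -1.41 to 0.16.

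Pdk4, which shuts pyruvate out of the citrate cycle in fasting, was at 10.8, 7.47, 19.3 and 10.4 CPM in control fasted livers, 2.45, 2.38, 3.11 and 4.79 in control refed livers, 30.5, 77.2, 45.7 and 17.3 in low isoleucine fasted livers, and 3.46, 3.53, 5.81 and 2.84 in low isoleucine refed livers. Refed livers were below fasted livers on both diets, and the low isoleucine fasted livers spread widely. Refeeding lowered it by 1.90 and 3.45 log2 units (adjusted p = 0.00706 and 7.85e-05), and the interaction was -1.55 ± 0.59 (unadjusted p = 0.0186), or -1.28 without control refed library 4. Kdsr, an enzyme of sphingolipid synthesis, had a smaller and tighter difference: it fell by 0.52 on the control diet and by 1.28 on the low isoleucine diet (adjusted p = 0.00845 and 3.74e-06), with an interaction of -0.76 ± 0.18 and a DESeq2 adjusted p of 0.0271.

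Genes of amino acid breakdown mostly had interactions above 0. Bhmt, betaine-homocysteine methyltransferase, which remakes methionine from homocysteine, is an abundant liver transcript. It was at 7760, 12800, 8430 and 5940 CPM in control fasted livers, 3460, 5920, 3190 and 4680 in control refed livers, 6850, 5610, 5250 and 6920 in low isoleucine fasted livers, and 9530, 6520, 10200 and 8230 in low isoleucine refed livers. All low isoleucine refed livers lay above all control refed livers, the fasted groups overlapped, and on the control diet the refed livers were the low group. Refeeding lowered Bhmt by 1.02 log2 units on the control diet (adjusted p = 0.00648), against 0.49 ± 0.23 on the low isoleucine diet (adjusted p = 0.15). The interaction was 1.503 ± 0.33, with an interval of 0.81 to 2.19, an unadjusted p of 0.000264 and a DESeq2 adjusted p of 0.00904.

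Slc6a12, a transporter of betaine, the methyl donor of Bhmt, also ranked among the first 10 genes above 0. It was at 92.1, 103, 89.1 and 81.1 CPM in control fasted livers, 73.6, 89.9, 69.2 and 84.7 in control refed livers, 72.7, 80.1, 71.6 and 83.5 in low isoleucine fasted livers, and 105, 101, 102 and 99.9 in low isoleucine refed livers. The 4 low isoleucine refed livers were the highest of their diet and lay above all control refed livers. Its interaction was small but tight, 0.61 ± 0.14 (interval 0.30 to 0.91, DESeq2 adjusted p = 0.0271).

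Hpd, a dioxygenase of tyrosine degradation, was at 2500, 2580, 2450 and 2370 CPM in control fasted livers, 1980, 2010, 1450 and 1960 in control refed livers, 1710, 2090, 2060 and 2700 in low isoleucine fasted livers, and 2320, 2650, 2590 and 2700 in low isoleucine refed livers. The low isoleucine refed livers lay above the control refed livers, and the fasted groups overlapped. Refeeding lowered Hpd on the control diet (-0.42 ± 0.14, adjusted p = 0.0458), and the interaction was 0.68 ± 0.20 (unadjusted p = 0.00291). Of 36 genes of amino acid catabolism and the urea cycle, 29 had an interaction above 0 (median 0.22). Above 0, 7 had an unadjusted p under 0.05, against 2.75% of all tested genes, with 0 below 0 at that level and 0 passing. Those 7 were Bhmt, Tat, Prodh, Gpt, Hpd, Gnmt and Cdo1. Counts without control refed library 4 were 34 and 12, and the median was 0.37. In that fit 524 of all 15043 tested genes were above 0 at an unadjusted p under 0.05.

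For the degradation of branched-chain amino acids, the pathway that removes isoleucine, 20 of 24 genes were above 0 with a median of 0.14. Against 2.75% of all tested genes, 5 of the 24 were above 0 at an unadjusted p under 0.05. These were Hsd17b10, Bcat2, Ivd, Mccc2 and Pccb, of which only Hsd17b10, an enzyme of the isoleucine branch, passed for refeeding on either diet, on the control diet (-0.59 ± 0.14, adjusted p = 0.00791). Mccc2 and Ivd act on leucine. Hsd17b10 was at 309, 355, 277 and 238 CPM in control fasted livers, 238, 214, 170 and 158 in control refed livers, 227, 275, 223 and 251 in low isoleucine fasted livers, and 257, 240, 245 and 248 in low isoleucine refed livers. The low isoleucine refed livers lay above the control refed livers, within a narrow range. Its interaction was 0.62 ± 0.20 (unadjusted p = 0.00647), and for 22 of the 24 genes the interval lay within 1 log2 unit of 0. Without control refed library 4 there were 18 above 0, with a median of 0.10. Of the 18, 3 were at an unadjusted p under 0.05, against 524 of 15043 tested genes.

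The ATF4 response to amino acid shortage gave large but uneven values. Trib3, a pseudokinase induced by ATF4, was at 9.59, 6.93, 7.15 and 9.08 CPM in control fasted livers, 3.5, 3.46, 2.91 and 6.28 in control refed livers, 10.7, 9.67, 10.2 and 8.98 in low isoleucine fasted livers, and 13.3, 32.3, 4.01 and 63.4 in low isoleucine refed livers. In the low isoleucine refed group libraries 2 and 4 were the high ones and library 3 lay within the control refed range. The interaction was 2.52 ± 0.79, with an interval of 0.83 to 4.21 (unadjusted p = 0.00641, adjusted p = 0.582), and 1.75 to 2.88 as single libraries were left out.

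Sesn2, a leucine sensor and inhibitor of mTORC1, was at 7.14, 8.29, 9.19 and 11 CPM in control fasted livers, 5.39, 3.69, 2 and 4.99 in control refed livers, 5.84, 6.39, 7.98 and 4.58 in low isoleucine fasted livers, and 9.45, 18.4, 3.44 and 24.4 in low isoleucine refed livers. The same order of libraries was seen, with library 3 low. Its interaction of 2.31 ± 0.62 had an edgeR unadjusted p of 0.00203 and a DESeq2 adjusted p of 0.0452; DESeq2 called no other member of the list. Chac1, which degrades glutathione, was at 0.604, 0.409, 0.76 and 0.674 CPM in control fasted livers, 2.86, 0.873, 0.359 and 1.34 in control refed livers, 0.477, 0.587, 0.151 and 0.428 in low isoleucine fasted livers, and 4.67, 16.3, 0.987 and 29.2 in low isoleucine refed livers. Library 3 was again the lowest of the low isoleucine refed livers. Refeeding raised Chac1 on the low isoleucine diet by 4.96 ± 0.89 log2 units (adjusted p = 0.00132) and gave 1.14 ± 0.86 on the control diet (adjusted p = 0.433), with an interaction of 3.83 ± 1.24 (unadjusted p = 0.00768).

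The amino acid response element bound by ATF4 with C/EBP partners, searched on both strands as TGATGNAA, is marked in capitals in the 250 bases before the start of Chac1, the listed gene with the largest interaction (RefSeq, GRCm38.p6, chr2:119350992-119351241, plus strand):
Chac1: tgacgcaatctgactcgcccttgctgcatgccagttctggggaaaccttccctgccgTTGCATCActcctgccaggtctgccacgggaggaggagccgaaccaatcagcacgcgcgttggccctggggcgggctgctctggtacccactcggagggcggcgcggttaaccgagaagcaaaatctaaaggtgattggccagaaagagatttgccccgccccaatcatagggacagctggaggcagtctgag
The match begins 193 bases before the start and reads as the reverse complement. The motif was present in 3.97% of all promoter windows and in 8 of 33 windows of the ATF4 list, among them those of Trib3, Atf3, Fgf21, Vldlr and Asns.

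Atf3, a transcription factor downstream of ATF4, was at 1.17, 0.751, 1.45 and 1.41 CPM in control fasted livers, 3.46, 4.3, 4.75 and 5.23 in control refed livers, 1.25, 1.04, 0.753 and 0.947 in low isoleucine fasted livers, and 11.8, 18.4, 3.17 and 28.7 in low isoleucine refed livers. All refed livers lay above all fasted livers, and low isoleucine refed library 3 was the lowest refed one. Refeeding raised Atf3 by 1.89 ± 0.47 and 3.96 ± 0.49 log2 units on the control and low isoleucine diets (adjusted p = 0.0124 and 5.14e-05), with an interaction of 2.08 ± 0.67 (unadjusted p = 0.00674). Atf4 itself, the factor, was at 69.6, 50.1, 69.6 and 65.9 CPM in control fasted livers, 117, 95.4, 109 and 100 in control refed livers, 59.2, 69.3, 64.3 and 64.9 in low isoleucine fasted livers, and 144, 195, 114 and 201 in low isoleucine refed livers. Refeeding raised it on both diets, by 0.73 ± 0.16 and 1.34 ± 0.16 log2 units (adjusted p = 0.00468 and 2.35e-05), with an interaction of 0.62 ± 0.22 (unadjusted p = 0.0128). The low isoleucine refed libraries 2 and 4 were again highest. Fgf21, a fasting and stress hormone of the liver, was at 5.08, 3.86, 7.87 and 4.87 CPM in control fasted livers, 14, 2.52, 2.24 and 5.73 in control refed livers, 6.54, 13.7, 22.5 and 11.7 in low isoleucine fasted livers, and 13.2, 97.4, 5.03 and 56.4 in low isoleucine refed livers. All groups overlapped, and its interaction of 1.49 ± 1.09 had an unadjusted p of 0.194 and ran from 0.70 to 2.26 as single libraries were left out. Of 33 genes tested 30 were above 0 (median 0.43). For 6 of them the unadjusted p was under 0.05, against 2.75% of all tested genes, and 0 passed. The median was 0.48 without control refed library 4 and 0.18 without low isoleucine refed library 4. The mean level of the list was 3.40 to 4.95 log2 CPM over the low isoleucine refed livers, against 3.12 to 3.70 in control refed livers. Asns, asparagine synthetase, the folate enzyme Aldh1l2 and the secreted protein Stc2 were the 3 members below 0, at -0.85, -0.74 and -0.49. Asns was at 0.042 and Stc2 at 0.153 without control refed library 4.

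**Figure D3:**
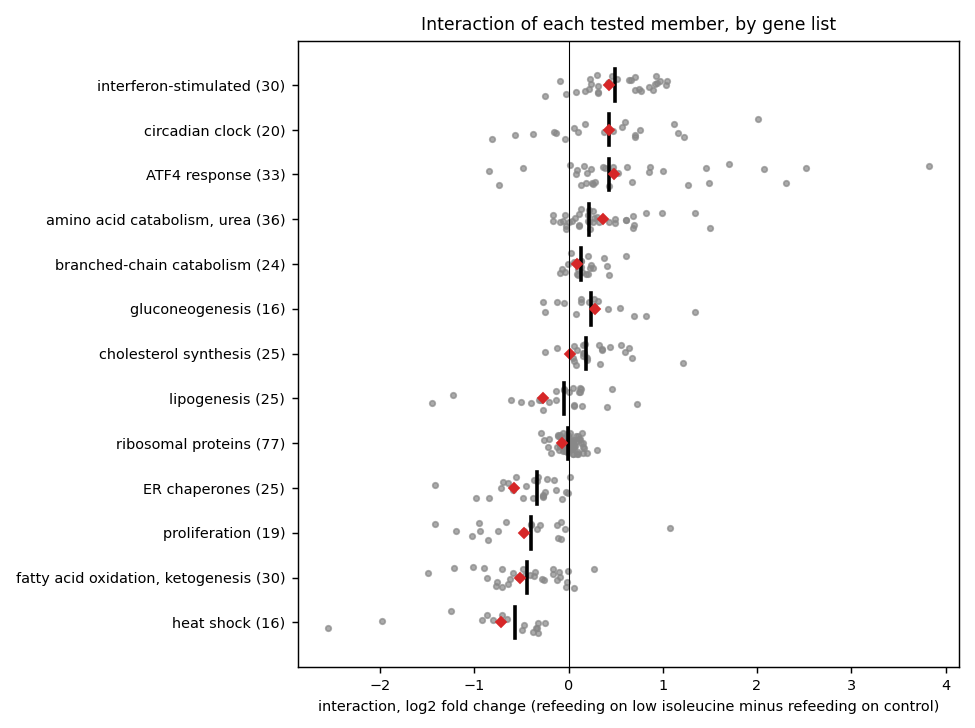
Interaction log2 fold change (x axis) of each tested gene in 13 gene lists, with the number tested in brackets. Black bars are list medians and red diamonds the medians without control refed library 4; the medians run from -0.57 for heat shock to 0.49 for interferon-stimulated genes, and the cholesterol and lipogenesis medians move towards or further below 0 without that library.

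A further set of genes was raised by refeeding on the control diet. The heat shock list, cytosolic and mitochondrial chaperones that fold new proteins, had 12 of 16 genes raised on the control diet, where 8.91% of all tested genes rose, and 1 on the low isoleucine diet, where 9.6% rose. All 16 had an interaction below 0 (median -0.57). Only 1 had an unadjusted p under 0.05, against 3.47% of all tested genes, and 0 passed. Without control refed library 4 all 16 were below 0, with 9 at an unadjusted p under 0.05 and a median of -0.72. In that fit 638 of all 15043 tested genes were below 0 at that level. Without control refed library 3 the list median was -0.29.

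Hspa4l, an HSP110 chaperone, was at 11.2, 12, 19 and 14.5 CPM in control fasted livers, 24.5, 21.9, 46.5 and 17.4 in control refed livers, 17.8, 13.9, 19.9 and 15.3 in low isoleucine fasted livers, and 15.2, 15.8, 24.3 and 15.9 in low isoleucine refed livers. The highest liver was control refed library 3, and the groups overlapped. Refeeding raised Hspa4l on the control diet by 0.96 ± 0.26 log2 units (adjusted p = 0.0201), against 0.09 ± 0.26 on the low isoleucine diet (adjusted p = 0.851). Its interaction was -0.87 ± 0.37 (unadjusted p = 0.0324), and -0.49 without control refed library 3 (unadjusted p = 0.0968). Hsp90aa1, the inducible HSP90, was at 190, 127, 261 and 254 CPM in control fasted livers, 547, 407, 1130 and 386 in control refed livers, 233, 191, 351 and 279 in low isoleucine fasted livers, and 366, 336, 565 and 390 in low isoleucine refed livers. On the control diet every refed liver lay above every fasted liver, by 1.57 ± 0.33 log2 units (adjusted p = 0.00427), and on the low isoleucine diet the value was 0.65 ± 0.32 (adjusted p = 0.172). The interaction was -0.92 ± 0.46 (unadjusted p = 0.0625) and ran from -1.10 to -0.45, the weaker end without control refed library 3. With control refed library 4 left out it was -1.10 (edgeR unadjusted p = 0.0295). The heat shock element, searched on both strands as GAA, TTC and GAA with any 2 bases between each, was present in 0.603% of all promoter windows and in 5 of 18 windows of the list, those of Chordc1, Hspd1, Hspe1 and Hsph1.

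Of 25 chaperones and sensors of the endoplasmic reticulum, 17 were raised by refeeding on the control diet, and 7 in low isoleucine livers, against 8.91% and 9.6% of all tested genes. Their median refeeding effects were 0.80 and 0.58 log2 units. The interaction was below 0 in 24 (median -0.34). There was 1 at an unadjusted p under 0.05, near the share of 3.47% of all tested genes, and 0 passed. That gene was Atf6, which encodes a sensor of unfolded protein. Atf6 was at 67.7, 65.6, 68.3 and 72.7 CPM in control fasted livers, 64.7, 69.7, 89 and 65.5 in control refed livers, 74.4, 96.1, 83.4 and 67.8 in low isoleucine fasted livers, and 57.2, 61.4, 59.2 and 52.7 in low isoleucine refed livers. The low isoleucine refed livers lay below the control refed and below the low isoleucine fasted livers. Its interaction was -0.55 ± 0.17 (unadjusted p = 0.00447). Hspa5, the chaperone BiP, was raised on both diets, by 1.70 ± 0.36 and 1.22 ± 0.36 (adjusted p = 0.00458 and 0.0233), with an interaction of -0.49 ± 0.50, which was -0.76 when control refed library 4 was omitted and -0.17 when library 3 of that group was. Xbp1, a transcription factor of the unfolded protein response, was raised by 0.88 ± 0.12 and 0.64 ± 0.12 (adjusted p = 0.000193 and 0.00167), with an interaction interval of -0.61 to 0.12. Without control refed library 4, 25 of 25 genes were below 0, 10 at an unadjusted p under 0.05, against 638 of 15043 tested genes. The list median was then -0.58, and without control refed library 3 it was -0.16.

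Cell cycle genes were mostly scarce. The mean level of the list was 1.28 ± 0.18 log2 CPM (SD, n = 4) in control refed livers, all above the other 12 livers, and 0.58 to 0.76 in the other groups. Ccnd1, cyclin D1, was at 10.7, 11.4, 17.5 and 10.9 CPM in control fasted livers, 29.9, 34.7, 28.8 and 60.6 in control refed livers, 10.8, 8.29, 16.9 and 7.94 in low isoleucine fasted livers, and 11.6, 20.6, 19 and 18.7 in low isoleucine refed livers. All control refed livers lay above all other livers. Refeeding raised Ccnd1 on the control diet by 1.61 ± 0.29 log2 units (adjusted p = 0.00127), against 0.67 ± 0.28 on the low isoleucine diet (adjusted p = 0.107). The interaction was -0.94 ± 0.40 (unadjusted p = 0.031), and -0.65 without control refed library 4, the highest liver (unadjusted p = 0.0836). Mcm4, a subunit of the replicative helicase, was at 2.45, 2.9, 2.11 and 1.99 CPM in control fasted livers, 3.78, 3.76, 4.15 and 5.58 in control refed livers, 2.94, 1.83, 2.11 and 2.05 in low isoleucine fasted livers, and 2.23, 2.94, 2.72 and 2.41 in low isoleucine refed livers. The control refed livers were the highest group without overlap, and the interaction was -0.66 ± 0.28 (unadjusted p = 0.0285).

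Of 19 proliferation genes tested 18 had an interaction below 0 (median -0.40). Those at an unadjusted p under 0.05 numbered 7, against 3.47% of all tested genes, and 0 passed. Birc5, survivin, was the 1 gene above 0, at 1.07 (unadjusted p = 0.0455), and at 0.67 without control fasted library 2 (unadjusted p = 0.147). Omitting control refed library 4 left 16 below 0, with a median of -0.47. Of the 16, 4 were at an unadjusted p under 0.05, against 638 of 15043 tested genes. Atad2, a chromatin ATPase of dividing cells, ranked second below 0 among genes of at least 1 CPM with no provisional name and had an interaction of -1.38 ± 0.29 with a DESeq2 adjusted p of 0.0271. Lymphocyte and stellate markers, other possible carriers of cell cycle transcripts, summed to between 6.63 and 33.7 CPM and between 256 and 678 CPM in control refed livers, the highest values being those of library 4. In low isoleucine refed livers the sums were 7.69 to 9.45 CPM and 274 to 401 CPM. Their part in the cell cycle values was not tested.

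Tfrc, the transferrin receptor that imports iron and is high in growing cells, ranked first below 0 among the same genes. It was at 19.6, 13.3, 16.1 and 18.8 CPM in control fasted livers, 28.2, 41.6, 27.5 and 25.9 in control refed livers, 18.9, 27, 24.1 and 16.6 in low isoleucine fasted livers, and 13.5, 10.3, 17.6 and 18.2 in low isoleucine refed livers. All control refed livers but 1 lay above all 12 others, and the fourth lay below 1 low isoleucine fasted liver. Refeeding raised Tfrc on the control diet by 0.86 ± 0.20 log2 units (adjusted p = 0.00825), and the value on the low isoleucine diet was -0.54 ± 0.20 (adjusted p = 0.0699). The interaction was -1.40 ± 0.29, with an interval of -2.01 to -0.79, an unadjusted p of 0.000157 and a DESeq2 adjusted p of 0.00904.

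**Figure D4:**
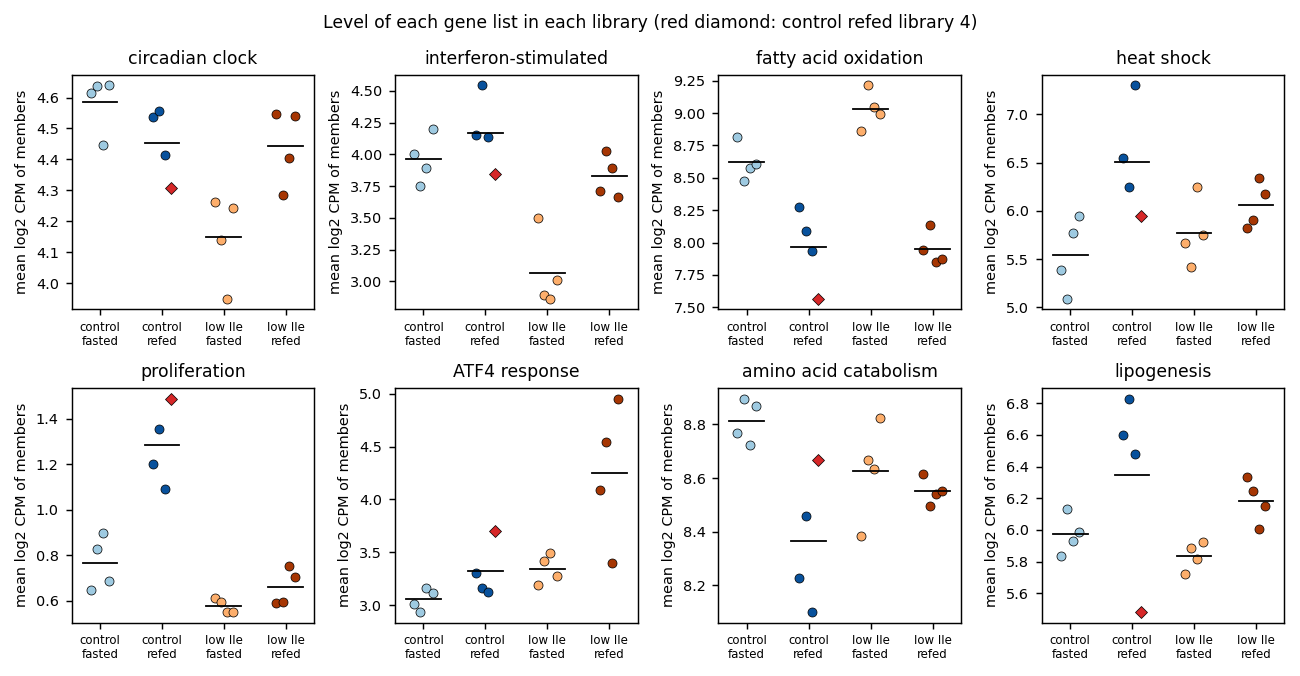
Mean log2 CPM of the tested members of 8 gene lists in each of the 16 livers, by group, with lines at group means; control refed library 4 is the red diamond. Clock and interferon levels were lowest in low isoleucine fasted livers, fatty acid oxidation was highest there, proliferation was highest in control refed livers, and the ATF4 list spread from 3.40 to 4.95 over the low isoleucine refed livers.

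Lipid synthesis, the best known target of refeeding, had interactions on both sides of 0. Of 25 lipogenic genes 12 had an interaction above 0 and 13 below (median -0.05). Here 1 and 2 had an unadjusted p under 0.05, against 2.75% and 3.47% of all tested genes. Fasn was at 46.7, 85.5, 44.8 and 53.1 CPM in control fasted livers, 545, 348, 420 and 62.2 in control refed livers, 51, 51.1, 68.9 and 57.7 in low isoleucine fasted livers, and 390, 387, 203 and 265 in low isoleucine refed livers. Refeeding raised it by 2.58 ± 0.47 log2 units on the control diet and by 2.44 ± 0.47 on the low isoleucine diet (adjusted p = 0.00185 and 0.00193), and the interaction was -0.13 ± 0.63 with an interval of -1.47 to 1.21. Without control refed library 4 the interaction of Fasn was -0.49. For the list 20 genes were then below 0 (median -0.27), 6 at an unadjusted p under 0.05, against 638 of 15043 tested genes. The lipogenic values thus depended on 1 library. Srebf1, the transcription factor of the pathway, rose by 1.80 ± 0.37 and 2.21 ± 0.37 (adjusted p = 0.00372 and 0.000766), with an interaction interval of -0.67 to 1.49. Pnpla3, a lipase that it controls, had an interaction of -1.45 ± 0.79 (unadjusted p = 0.0845).

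Scd1, the stearoyl-CoA desaturase, was at 1490, 5930, 4780 and 2790 CPM in control fasted livers, 2170, 5270, 2540 and 573 in control refed livers, 1580, 2070, 1510 and 2150 in low isoleucine fasted livers, and 334, 952, 568 and 343 in low isoleucine refed livers. The low isoleucine refed livers were below all others except control refed library 4, which lay among them. Refeeding lowered Scd1 on the low isoleucine diet by 1.74 log2 units (adjusted p = 0.0382), against -0.51 ± 0.54 on the control diet (adjusted p = 0.604), and the interaction was -1.23 ± 0.77 (unadjusted p = 0.132). It was -1.57 without control refed library 4 (unadjusted p = 0.0282) and -0.65 without control refed library 2 (unadjusted p = 0.369). Fads2 and Elovl5, which desaturate and elongate polyunsaturated fatty acids, were the 2 lipogenic genes below 0 at an unadjusted p under 0.05, with -0.61 ± 0.25 and -0.50 ± 0.22.

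Of 25 genes of cholesterol synthesis, 7 were raised on the control diet, and 17 in low isoleucine livers, against 8.91% and 9.6% of all tested genes. Their median refeeding effects were 0.94 and 1.27 log2 units. The interaction was above 0 in 23 (median 0.18). The 1 gene at an unadjusted p under 0.05, near the share of 2.75% of all tested genes, was Mvk, mevalonate kinase, at 1.21. With control refed library 4 left out 13 were above 0 and the median was 0.02, and the median ran from 0.01 to 0.54 over single libraries left out. For gluconeogenesis 12 of 16 were above 0 (median 0.24), against 47.7% of all tested genes. At an unadjusted p under 0.05 there were 4 above 0, against 2.75% of all tested genes. Of these 4, Tat and Gpt are also on the amino acid list. The median was 0.12 without control refed library 3. Pklr, the liver pyruvate kinase of glycolysis, rose by 2.30 ± 0.41 and 1.91 ± 0.40 on the 2 diets (adjusted p = 0.00148 and 0.00363), with an interaction of -0.39 ± 0.55. For 15 genes that insulin lowers through FOXO1, 12 were above 0, against 47.7% of all tested genes. Igfbp1 and Trib1, 2 of the 15, were above 0 at an unadjusted p under 0.05, against 2.75% of all tested genes. The list median was 0.16. That median was 0.08 without low isoleucine fasted library 4 and 0.29 without low isoleucine fasted library 1. Irs2, an insulin receptor substrate, fell by 2.04 and 1.36, with an interaction interval of -0.31 to 1.68. The 77 ribosomal protein genes had a median of -9e-04, and 19 aminoacyl-tRNA synthetases a median of 0.02; as single libraries were left out these ran from -0.14 to 0.07 and from -0.03 to 0.10.

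Igfbp1, a binding protein for insulin-like growth factors that insulin represses, was at 46.2, 44.6, 242 and 57.5 CPM in control fasted livers, 4.71, 4.03, 0.998 and 10.7 in control refed livers, 76.7, 104, 243 and 69 in low isoleucine fasted livers, and 9.48, 79, 7.48 and 107 in low isoleucine refed livers. Low isoleucine refed libraries 2 and 4 lay at fasted levels and libraries 1 and 3 at control refed levels. Refeeding lowered it on the control diet by 4.22 log2 units (adjusted p = 0.0103), and the interaction was 2.94 ± 1.26, with an interval of 0.24 to 5.65 (unadjusted p = 0.0352).

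Among the other ranked genes, Map2k6, a kinase upstream of p38, had the next smallest p after Ciart. It was at 3.94, 6.72, 3.28 and 3.11 CPM in control fasted livers, 3.58, 2.89, 3.59 and 2.26 in control refed livers, 1.65, 1.69, 1.35 and 2.17 in low isoleucine fasted livers, and 4.14, 3.32, 5.42 and 5.28 in low isoleucine refed livers. All low isoleucine fasted livers lay below all others. Refeeding raised it on the low isoleucine diet by 1.40 ± 0.26 log2 units (adjusted p = 0.00116), with -0.48 ± 0.25 on the control diet (adjusted p = 0.229) and an interaction of 1.88 ± 0.36 (DESeq2 adjusted p = 0.00477). Mtss1, which bends membranes at actin-rich protrusions, was at 103, 129, 139 and 144 CPM in control fasted livers, 120, 116, 123 and 105 in control refed livers, 75.2, 69.4, 81.1 and 86.6 in low isoleucine fasted livers, and 115, 111, 120 and 124 in low isoleucine refed livers. The low isoleucine fasted livers were again the low group, and the interaction was 0.74 ± 0.15.

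Tuba1b, an α-tubulin, was at 21.3, 19.9, 20.7 and 21.7 CPM in control fasted livers, 47.3, 37.5, 39.4 and 51.7 in control refed livers, 29.3, 35.7, 44.9 and 38.3 in low isoleucine fasted livers, and 39.6, 50.3, 31.4 and 42.9 in low isoleucine refed livers. Here the control fasted livers were the low group and the other 3 groups overlapped. Refeeding raised it on the control diet by 1.07 ± 0.15 log2 units (adjusted p = 0.000177), against 0.15 ± 0.15 on the low isoleucine diet (adjusted p = 0.528), with an interaction of -0.92 ± 0.21. Rnd1, a small GTPase, fell on both diets, by 2.18 and 1.02 log2 units, and its interaction was 1.15 ± 0.28. The remaining ranked genes were Tmem86b, Isoc2b, Izumo4 and Ccdc62 above 0, between 0.91 and 1.12, and Atxn1, Rad51b, Tent5c, Frrs1 and Rhpn2 below 0, between -0.68 and -2.03. Their ranking by p is a description, since their adjusted edgeR p-values ran from 0.285 to 0.356. DESeq2 called 19 of the 20 ranked genes; for Izumo4 its adjusted p was 0.0531.

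**Figure D5:**
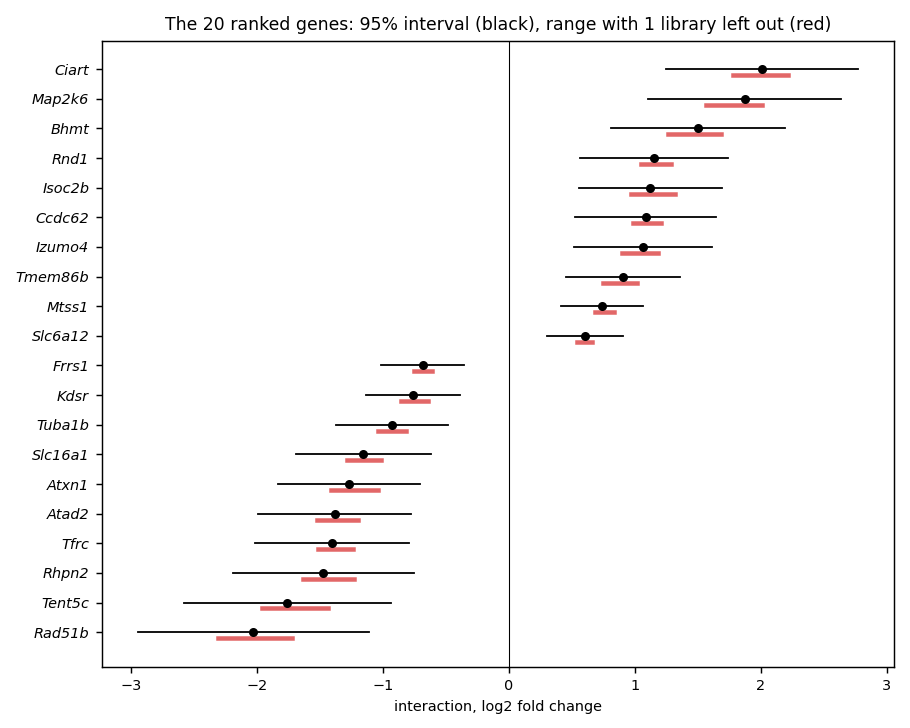
Interaction log2 fold change of the 20 ranked genes. They are the 10 in each direction with the smallest unadjusted interaction p, among genes averaging at least 1 CPM without provisional names. Points and black lines are estimates with 95% intervals and red lines the range over 16 fits with 1 library left out each; no range reaches 0, and the genes were ranked on these same values.

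Globin transcripts, which come from red blood cells in the tissue, also differed between the groups. Hbb-bs, an adult β-globin, was at 89.3, 96, 86.3 and 77.9 CPM in control fasted livers, 110, 82.9, 91.4 and 91.5 in control refed livers, 266, 177, 131 and 127 in low isoleucine fasted livers, and 78, 117, 102 and 104 in low isoleucine refed livers. Every low isoleucine fasted liver was above all others, and the other groups overlapped. Its interaction was -0.91 ± 0.27 (unadjusted p = 0.00387), and -1.04 to -0.64 as single libraries were left out. The erythroid markers summed to between 246 and 637 CPM in low isoleucine fasted livers, 198 to 252 CPM in control fasted livers, 207 to 293 CPM in control refed livers and 174 to 262 CPM in low isoleucine refed livers. Reads of the near-identical globin copies can be split between them. The part of blood content in the other values of low isoleucine fasted livers was not tested.

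Markers of endothelial, stellate, Kupffer and lymphoid cells had interaction medians of 0.01, 0.01, 0.06 and 0.02, and without control refed library 4 of 0.35, 0.42, 0.26 and 0.62. The hepatocyte list moved from 0.01 to 0.03. Of 7 cholangiocyte markers 5 were above 0 (median 0.44, or 0.02 without low isoleucine refed library 4). The 3 neutrophil markers that were tested, of 10 listed, were all below 0 (median -0.37), and all 3 were above 0 once control refed library 4 was left out (median 0.19). No listed cell type marker was at 0 counts in all libraries. Their part in the values without that library was not tested.

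For genes with a mean diet effect over both feeding states, 226 passed (1.51%), 86 with higher levels (0.576%) and 140 with lower levels (0.938%) under isoleucine restriction. The count was 473 without control refed library 4, 410 without low isoleucine fasted library 1 and 115 without low isoleucine fasted library 2. Within single states 115 genes passed in fasted livers (0.771%) and 26 in refed livers (0.174%). The diet effects in the 2 states had a Spearman correlation of 0.876 across these genes, which their choice on the mean of both effects favours. The interaction had the sign of the diet effect in 38.9% of them, with a median absolute diet effect of 0.81 in fasted and 0.61 in refed livers. Vldlr, the receptor for very low density lipoprotein, was at 3.41, 1.4, 1.73 and 0.738 CPM in control fasted livers, 3.06, 2.89, 1.16 and 3.18 in control refed livers, 8.37, 9.15, 7.41 and 7.24 in low isoleucine fasted livers, and 16.7, 17.4, 14.3 and 15.4 in low isoleucine refed livers. The diets did not overlap in either state, and the low isoleucine diet was higher by 2.15 ± 0.34 log2 units in fasted livers and by 2.62 ± 0.34 in refed livers (adjusted p = 0.0143 and 0.00487). The interaction was 0.47 ± 0.47, with an interval of -0.51 to 1.46, and -0.0193 without control fasted library 1, the highest of its group. Cyp39a1, an oxysterol hydroxylase, was higher on the low isoleucine diet by 1.75 ± 0.23 fasted and 1.26 ± 0.23 refed (adjusted p = 0.00717 and 0.0341), with an interaction of -0.49 ± 0.32, or -0.10 without control refed library 4 (unadjusted p = 0.599).

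The authors' deposited tables give a diet comparison in each feeding state, and the difference of their 2 log2 fold changes can be set beside the contrast used here. For Ciart the authors' deposited tables give -1.53 in fasted and 0.49 in refed livers, a difference of 2.02. For Trib3 the authors' deposited tables give 0.27 and 2.79, a difference of 2.53. The signs of these differences were those of the interactions above, from the same libraries.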

How the data were processed

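Polyadenylated RNA of 16 mouse livers was sequenced as strand-specific libraries on 3 lanes that the authors merged, per the labels' protocols. The deposited table holds the authors' RSEM expected counts for 51912 genes, of which 51633 have a symbol in the table and 10.2% of values are not whole. The deposited log2 fold changes, log2 CPM averages, F statistics (a score) and p-values come from the authors' diet comparisons, per the file headers. The submitters' processing notes list R 3.5.3, edgeR and limma without a role. No source used here gives the aligner, genome build or annotation, so no gene coordinates of the count table are printed, and promoters come from RefSeq on GRCm38.p6.

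Expected counts were rounded, filtered with filterByExpr (minimum count 10, minimum total 15) and scaled by TMM, and 1 robust quasi-likelihood model over the 4 groups was fitted in edgeR 4.0.16 (R 4.3.3), with Benjamini-Hochberg adjustment over 14920 genes. CPM values use the same factors, and they compare a gene between libraries, not genes with each other. Standard errors were obtained as |log2 fold change| over the root of the F statistic. Alternatives were DESeq2 1.42.0, limma 3.58.1 (voom), other scalings and filters, a replicate block and leaving out each library. The script was tested on simulated data. The interaction, the 32 gene lists and the members were chosen with earlier results of these data known. Named genes are the 10 in each direction with the smallest unadjusted interaction p (mean of at least 1 CPM, no provisional name), 30 listed metabolic genes, the largest refeeding and diet effects, and up to 4 per list by p; not all are printed, and a few are not reported here. Members named outside this rule, among them Ifit1, Hadhb, Cd36 and the few with a sign opposite to their list, were chosen after their values were seen.

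The labels repeat the marks RL, R, L and N in each group. Deviations of libraries with the same mark had a mean correlation of 0.018 over 24 pairs (-0.325 to 0.323), so the marks were not taken to pair the animals. No set test was run, and lists are described by counts and medians. Reads of near-identical gene copies can be split between them.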

Additional observations from a re-analysis of the deposited data

Results flagged for a closer look

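In 232 groups of 4 livers (genes shown by library and list levels), 13 held a liver past Dixon's 95% critical value, which is 5.6% where chance gives about 1 in 20. The values are given without explanation.

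Among single genes in fasted control livers, Slc16a1 was 41.3 CPM in library 2 against 61.3 to 65.9 CPM in the others, and Atf4 was 50.1 CPM there against 65.9 to 69.6 CPM. Control fasted library 3 had the highest Igfbp1, 242 CPM against 44.6 to 57.5 CPM, and the highest Ccnd1, 17.5 CPM against 10.7 to 11.4 CPM. Among control refed livers library 3 was lowest for Vldlr, 1.16 CPM against 2.89 to 3.18 CPM, and for Hpd, 1450 CPM against 1960 to 2010 CPM. Among low isoleucine refed livers Ehhadh was 2650 CPM in library 2 against 1500 to 1620 CPM. Hspa4l was 24.3 CPM in low isoleucine refed library 3 against 15.2 to 15.9 CPM, and Ccnd1 was 11.6 CPM in library 1 against 18.7 to 20.6 CPM.

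Of the list levels, given as mean log2 CPM, the circadian list was 4.45 in control fasted library 3 against 4.62 to 4.64 in the others. The cholesterol list was 5.81 in low isoleucine fasted library 1 against 5.08 to 5.13, and 5.24 in control refed library 4 against 6.61 to 6.82. Gluconeogenesis was 6.82 in low isoleucine fasted library 1 against 7.26 to 7.28.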

How the results depend on the processing

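The count of interaction calls was 0 in edgeR under the other scalings, filters, the non-robust fit and the replicate block, and in limma-voom. It was 35 in DESeq2 and 0 to 1 as each library was left out; the 1 gene, Hsd3b3, was called without low isoleucine fasted library 1. The average diet effect gave 603 genes in DESeq2, 1213 in limma-voom with quality weights and 115 to 473 with 1 library left out. The signed median ranged from 0.0174 to 0.1064 with 1 library left out. The counts for refeeding stayed within 1.5 times in every setting. The cause of these shifts was not tested.

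Signs turned for 7 named genes near 0 or resting on 1 library. Fasn was 0.1292 in limma-voom and -0.491 to 0.1804 with 1 library left out. Pck1 was -0.1758 with quality weights and -0.2807 to 0.2962 with 1 left out. Stc2 was 0.2649 with quality weights and -0.7318 to 0.153 with 1 left out. With 1 library left out, Asns ran from -1.3038 to 0.042, Cyp4a32 from -0.0817 to 0.4293, and Vldlr from -0.0193 to 0.7404. Sult1e1 ran from -4.5961 to 0.3503. The cause was not tested.

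With the replicate block the counts were 0 for the interaction, 2301 and 2983 for refeeding on the control and low isoleucine diets, 4714 for average refeeding and 186 for the average diet effect. Of the 16 libraries 6 had their best match in a library of the same mark.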

Other observations

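Immediate early genes respond within minutes to signals. Among 23 of them, 15 had an interaction above 0 (median 0.41), against 47.7% of all tested genes. At an unadjusted p under 0.05 there were 3 above 0, against 2.75% of all tested genes, and 0 passed. Btg2, an antiproliferative factor, was at 14.5, 10.4, 34.2 and 20.9 CPM in control fasted livers, 5.91, 10.3, 5.39 and 11.8 in control refed livers, 7.9, 7.74, 7.35 and 7.03 in low isoleucine fasted livers, and 7.08, 7.47, 5.78 and 8.67 in low isoleucine refed livers. The control fasted livers were the highest group, with 1 overlap with control refed livers. Refeeding lowered Btg2 on the control diet by 1.25 log2 units (edgeR adjusted p = 0.0108), and the value on the low isoleucine diet was -0.05 ± 0.31 (adjusted p = 0.935). The interaction was 1.20 ± 0.43 (unadjusted p = 0.0137). Jund, an AP-1 subunit, rose with refeeding on the low isoleucine diet (1.31 ± 0.29, adjusted p = 0.00448), with an interaction of 1.03 ± 0.41. The list median fell to 0.0498 without control fasted library 3.

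Autophagy and lysosome genes had an interaction below 0 in 21 of 27 (median -0.12), and ribosome biogenesis genes in 30 of 40 (median -0.13). Each list had 1 gene at an unadjusted p under 0.05, near the share of 3.47% of all tested genes. As single libraries were left out, the autophagy median ran from -0.18 (control refed library 4) to -0.05 (control refed library 1). The ribosome biogenesis median ran from -0.22 (control fasted library 3) to -0.07 (control refed library 3). The genes at an unadjusted p under 0.05 were Gabarapl1, an autophagosome protein, at -0.55 ± 0.23, and Ddx21, a nucleolar helicase, at -0.50 ± 0.21. Of 15 genes higher in female than male liver, 11 had an interaction below 0 (median -0.86), but the median was 0.0362 without control refed library 2. Sult1e1, oestrogen sulfotransferase, was at 0.249, 1.23, 0.414 and 0.257 CPM in control fasted livers, 0.161, 16.6, 0.24 and 0.298 in control refed livers, 12, 3.18, 4.3 and 1.53 in low isoleucine fasted livers, and 2.73, 3.69, 2.81 and 2.87 in low isoleucine refed livers. Only library 2 was high among control refed livers, and the interaction of -3.79 ± 1.68 became 0.3503 without it. Of 20 genes higher in male liver 11 were above 0 (median 0.21), but 9 were above 0 without control refed library 4 (median -0.12), and the median was 0.55 without control refed library 3. Their median diet effect was -1.35 in fasted and -1.26 in refed livers.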
